A study of Mus musculus with 2 samples.

Results

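Amino acid transporters were examined in pancreatic islets of adult mice, in the 7 solute carrier families Slc1a, Slc3a, Slc6a, Slc7a, Slc36a, Slc38a and Slc43a. Every probe set was taken whose platform annotation named a single gene of these families, which gave 118 of 45037 probe sets and 58 of 18193 genes. The stated aim was to find target genes of the transcription factor ZBTB20 in beta cells. Control islets came from wildtype littermates, and the other islets from mice with a beta cell-specific knockout of Zbtb20. Both groups were of mixed background and 2 to 3 months old, and their islets were picked by hand after collagenase digestion, cultured overnight and frozen. Each group was measured on 1 Affymetrix array, so no difference below carries a replicate error or a test, and every ratio compares 1 RNA preparation with another. How many animals contributed to an array, which part of Zbtb20 was deleted and which promoter drove the deletion are not given in the sources used here.

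Amino acid transporters carry amino acids and related compounds across the plasma membrane, the lysosomal membrane or the membrane of synaptic vesicles. Slc1a members take up glutamate or exchange small neutral amino acids, Slc6a members use the sodium and chloride gradients for neurotransmitters, taurine, creatine and neutral amino acids, and Slc7a members are either cationic amino acid transporters or light chains that work only when bound to a heavy chain of the Slc3a family. Slc36a members couple transport to protons, Slc38a members carry glutamine and other small neutral amino acids with sodium, and Slc43a members include facilitators for leucine and other large neutral amino acids. In islets, amino acids stimulate insulin secretion from beta cells and glucagon secretion from alpha cells.

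Signals are MAS5 intensities, in which the probes of a probe set are summarised into 1 linear value. Signals of different probe sets are not comparable as levels, so each gene, or the sum over a marker list, is compared only with itself on the other array. A gene is represented by its brightest probe set, and ratios are given as log2 of the signal in knockout-labelled islets over that in control islets. The median of each array (21.6 in control and 21.7 in knockout-labelled islets) served as a floor. Where 1 of the signals lay under the floor, the ratio can be larger than stated, and "at least" marks it as a bound. A bulk islet preparation holds several cell types, and fewer cells of a type cannot be told apart from less RNA per cell.

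The targeted gene did not settle the genotype label. Zbtb20 had 9 probe sets, of which 5 were lower and 4 higher in knockout-labelled islets. This count applied no floor, so it can hold probe sets near background. The brightest gave 238 in control and 205 in knockout-labelled islets. The array is therefore called knockout-labelled throughout. Of 8 probed beta cell markers all were above the floor on both arrays, and none differed by 1.5-fold. Signals of 6 of the 8 were lower in knockout-labelled islets (median log2 ratio -0.17). The largest ratios were those of Ucn3 (-0.54) and Slc2a2 (0.52). Marker signals of some other cell types differed more between the preparations. Acinar cell markers were at least 2-fold lower in knockout-labelled islets for 8 of 14 measured genes (median log2 ratio -1.04), and macrophage markers were at least 2-fold higher for 4 of 13 (median 0.57). Over all genes above the floor on at least 1 array, 1.44% were at least 2-fold lower and 1.82% at least 2-fold higher.

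Most transporter genes that could be measured had similar signals on the 2 arrays. Of the 58 genes, 31 were above the floor on at least 1 array and 28 of these on both. Knockout-labelled islets had a 2-fold or higher signal for 2 of the 31, Slc38a5 and Slc1a5, where 1.82% of the 11802 genes above the floor on at least 1 array did so. A 2-fold or lower signal was found for 1 of the 31, Slc6a17, against 1.44% of all genes. From a 1.5-fold limit on, Slc6a8 joined the higher genes to give 3 of 31 (6.9% of all genes), and no gene joined the lower ones, which left 1 of 31 (6.2% of all genes). Within 1.5-fold lay 27 of the 31 transporter genes, or 87.1%, and 86.9% of all genes. The median log2 ratio was 0.13 for the 31 transporter genes and 0 for all genes, with 20 of the 31 (64.5%) above 0 compared with 49.9% of all genes. Counted by probe set, the median was 0.02 over the 61 transporter probe sets above the floor on at least 1 array. It was 0.0032 over 21257 such probe sets of all genes, so the higher median depended on taking the brightest probe set. Slc1a5, Slc3a1 and Slc1a7 entered the 31 through 1 array only. For the 28 transporter genes that passed both floors the median was 0.10, with 18 (64.3%) above 0 compared with 49.8% of the 10450 genes of all kinds above both floors. Among these 28, 1 was at least 2-fold higher (Slc38a5) and 1 at least 2-fold lower (Slc6a17). Of the 10450 genes, 161 were higher and 140 lower by that limit. The counts past 2-fold rest on 1 or 2 genes each and are a description of these arrays.

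**Figure D1:**
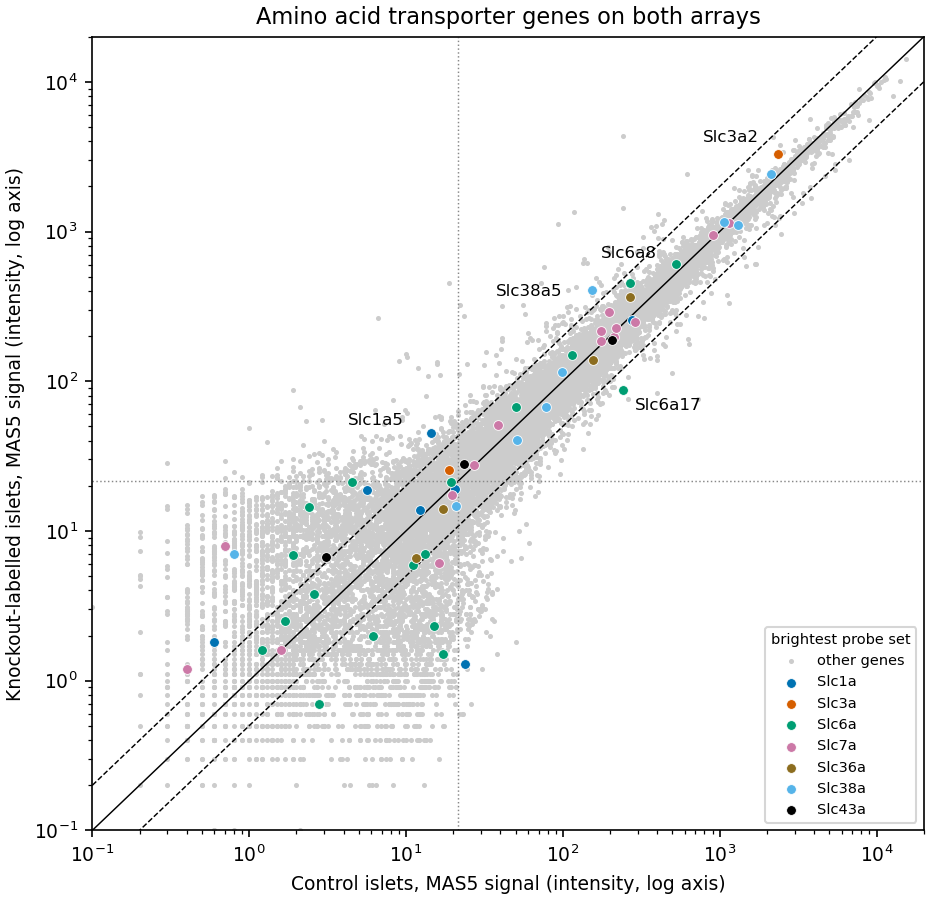
MAS5 signal of each gene's brightest probe set in control (x axis) and knockout-labelled islets (y axis), both log axes, with the 58 transporter genes coloured by family and other genes in grey. The solid line marks equal signals, dashed lines a 2-fold difference and dotted lines the floor of each array. Of the transporter genes above both floors, Slc38a5 lies above the upper dashed line, Slc6a17 below the lower one and the others between them, while signals under a floor, Slc1a5 in control among them, scatter widely.

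The medians of the families ran from -0.10 to 0.39 and rest on few genes. The median log2 ratio was -0.10 for 3 Slc1a genes, 0.36 for both Slc3a genes and 0.39 for 5 Slc6a genes. It was 0.05 for 10 Slc7a genes, 0.14 for 2 Slc36a genes, 0.13 for 7 Slc38a genes and 0.08 for 2 Slc43a genes. Of these, 2 Slc1a genes (Slc1a5 and Slc1a7) and 1 Slc3a gene (Slc3a1) entered as bounds, above the floor on 1 array only. Bounds left aside, the Slc6a family ran from -1.45 to 0.74 and the Slc38a family from -0.31 to 1.41, and the Slc7a family stayed between -0.21 and 0.55 with no gene at 1.5-fold.

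Slc38a5, which encodes the sodium-coupled glutamine transporter SNAT5 of system N, had the largest ratio above 1 among the transporter genes measured on both arrays. Its only probe set read 153 in control and 406 in knockout-labelled islets. The signal was 2.66-fold higher, a log2 ratio of 1.41 that 84 of 11802 genes reached or passed. Among the 1000 genes nearest to it in mean signal, the central 95% of log2 ratios ran from -0.77 to 0.73. Slc38a3, the other system N gene (SNAT3), was at or below the floor on both arrays in both of its probe sets. In islets SNAT5 is best known from alpha cells. All 4 alpha cell markers above the floor (Gcg, Ttr, Irx1 and Irx2) had lower signals in knockout-labelled islets, with log2 ratios from -0.47 to -0.12. Loxl4 was at or below the floor, and the 5 probed alpha cell markers summed to 25415 in control and 20526 in knockout-labelled islets, a sum made up almost wholly of Gcg and Ttr. Acinar cell markers had lower and macrophage markers higher signals on the same array. The part of cell type makeup in the Slc38a5 ratio was not tested.

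The system A genes, sodium-coupled carriers of alanine, glutamine and other small neutral amino acids, showed no such difference. Slc38a2 (SNAT2), whose expression is known to follow amino acid supply, read 1062 in control and 1163 in knockout-labelled islets (log2 ratio 0.13). Its 2 other probe sets gave log2 ratios of 0.00 and -0.71, so they did not move together, and the latter belonged to a weak probe set with signals of 59.7 and 36.4. Slc38a4 (SNAT4) read 1307 and 1098, with log2 ratios of -0.25 and -0.0036 in its 2 probe sets. Slc38a1 (SNAT1) was at or below the floor on both arrays.

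The remaining Slc38a genes were within 1.5-fold. Slc38a7, a lysosomal glutamine transporter, read 98.9 in control and 115 in knockout-labelled islets. Slc38a9, a lysosomal transporter that senses arginine for the growth kinase complex mTORC1, read 50.7 and 40.8, and its other measured probe set 25.9 and 26.1. Slc38a6 read 78 and 67.2. Slc38a10 had 7 probe sets, and 6 of them passed the floor on both arrays. Its brightest read 2124 and 2429, and the log2 ratios of the 6 ran from -0.49 to 1.04 with an SD of 0.54, so the probe sets of this gene disagreed in direction. The ratio of 1.04 came from the weakest of the 6, with signals of 26.4 and 54.2 next to the floor.

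Among the small neutral amino acid exchangers of the Slc1a family, Slc1a5 was higher as a bound near background, and the probe sets of Slc1a4 differed in direction. Slc1a5 encodes ASCT2, an exchanger that brings glutamine into cells. Its brightest probe set read 14.4 in control, under the floor, and 45 in knockout-labelled islets, which was at least 2.08-fold higher. Its other probe set was under the floor on both arrays, at 6.1 and 17.7. Both Slc1a5 readings are thus close to background, and a floor at the 70th percentile removed the gene. Slc1a4 (ASCT1) read 274 in control and 255 in knockout-labelled islets, and its 2 other probe sets gave log2 ratios of -0.05 and 0.50. Of the glutamate transporters, Slc1a1, Slc1a2, Slc1a3 and Slc1a6 were at or below the floor in all their probe sets. Slc1a7 passed it in control only, at 23.7, next to the floor, and read 1.3 in knockout-labelled islets, a bound of at least 1.09-fold lower. With the floor at the 30th percentile its log2 ratio was -1.46 and that of Slc1a5 1.64, so these bounds cannot be ranked against the measured genes.

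Slc6a17 had the lowest ratio among the transporter genes measured on both arrays. It encodes NTT4, a neutral amino acid transporter of synaptic vesicles known from neurons. Its brightest probe set read 241 in control and 87.9 in knockout-labelled islets. The signal was thus 2.74-fold lower, and 30 of 11802 genes had a log2 ratio as low as its -1.45 or lower. The central 95% of the 1000 genes of nearest mean signal ran from -0.71 to 0.85. The 2 other probe sets were also lower, from 84.2 to 64.7 (log2 ratio -0.38) and from 48.7 to 16.7, at least 2.24-fold lower. All 3 probe sets thus pointed the same way but differed in size. Markers of Schwann cells and neurons went both ways, with 3 of the 4 measured ones higher and 1 lower in knockout-labelled islets. Tubb3, a neuronal tubulin, went from 46.5 to 83.8, Ngfr was at least 1.65-fold higher, and Th, the enzyme that starts catecholamine synthesis, read 204 and 134. S100b and Gfap were at or below the floor. Signals of the 6 probed markers summed to 302 in control and 291 in knockout-labelled islets, with Th the largest part of each sum. Their part in the Slc6a17 ratio was not tested.

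**Figure D2:**
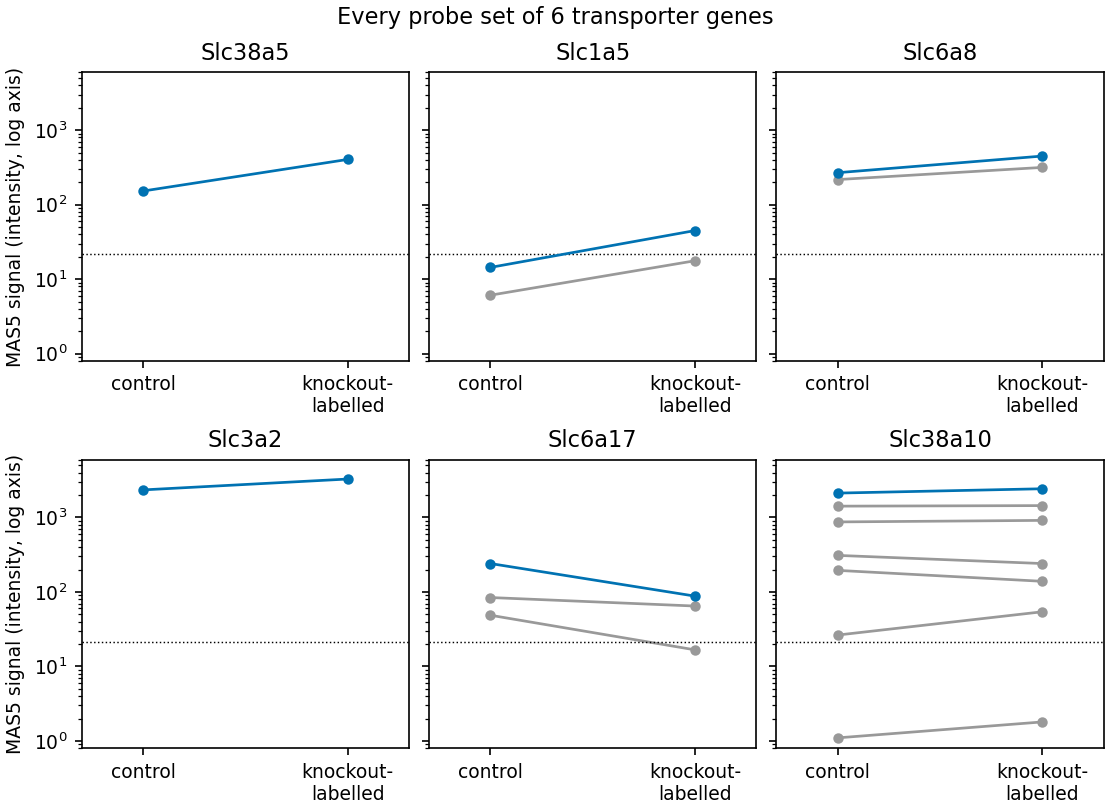
MAS5 signal (log axis) of every probe set of 6 transporter genes on the control and the knockout-labelled array, each line being 1 probe set. Blue marks the brightest probe set of a gene, grey the others, and the dotted line the control floor of 21.6. All 3 probe sets of Slc6a17 and both of Slc6a8 move in a shared direction, whereas those of Slc38a10 do not.

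Slc6a8, Slc6a6 and Slc6a9 had higher signals in knockout-labelled islets in every probe set above the floor, all within the central range of genes of like signal for the brightest probe set. Slc6a8, the creatine transporter gene, read 269 in control and 449.9 in knockout-labelled islets, a 1.67-fold difference. Its other probe set read 218 and 317, so both probe sets were higher by similar amounts (log2 ratios 0.74 and 0.54). Genes of like signal had a central range from -0.59 to 0.77, which includes this ratio. Slc6a6, the taurine transporter gene, read 525 and 605, and its 3 probe sets above the floor gave log2 ratios between 0.15 and 0.21. Slc6a9, which encodes the glycine transporter GlyT1, read 114 and 149, and its other probe set 53.9 and 78.6, for log2 ratios of 0.39 and 0.54.

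Slc6a19 encodes the neutral amino acid transporter best known from gut and kidney. It read 50.2 in control and 66.9 in knockout-labelled islets, and its other probe set 14.1 and 37, at least 1.71-fold higher. Collectrin (Cltrn), which is needed in the kidney to bring this transporter to the membrane and is also made by beta cells, read 4190 and 3571. The other 13 Slc6a genes were at or below the floor on both arrays. They include the monoamine transporter genes Slc6a2, Slc6a3 and Slc6a4, the GABA and betaine transporter genes Slc6a11, Slc6a12 and Slc6a13, and Slc6a14, Slc6a15 and Slc6a18 for neutral or cationic amino acids.

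**Figure D3:**
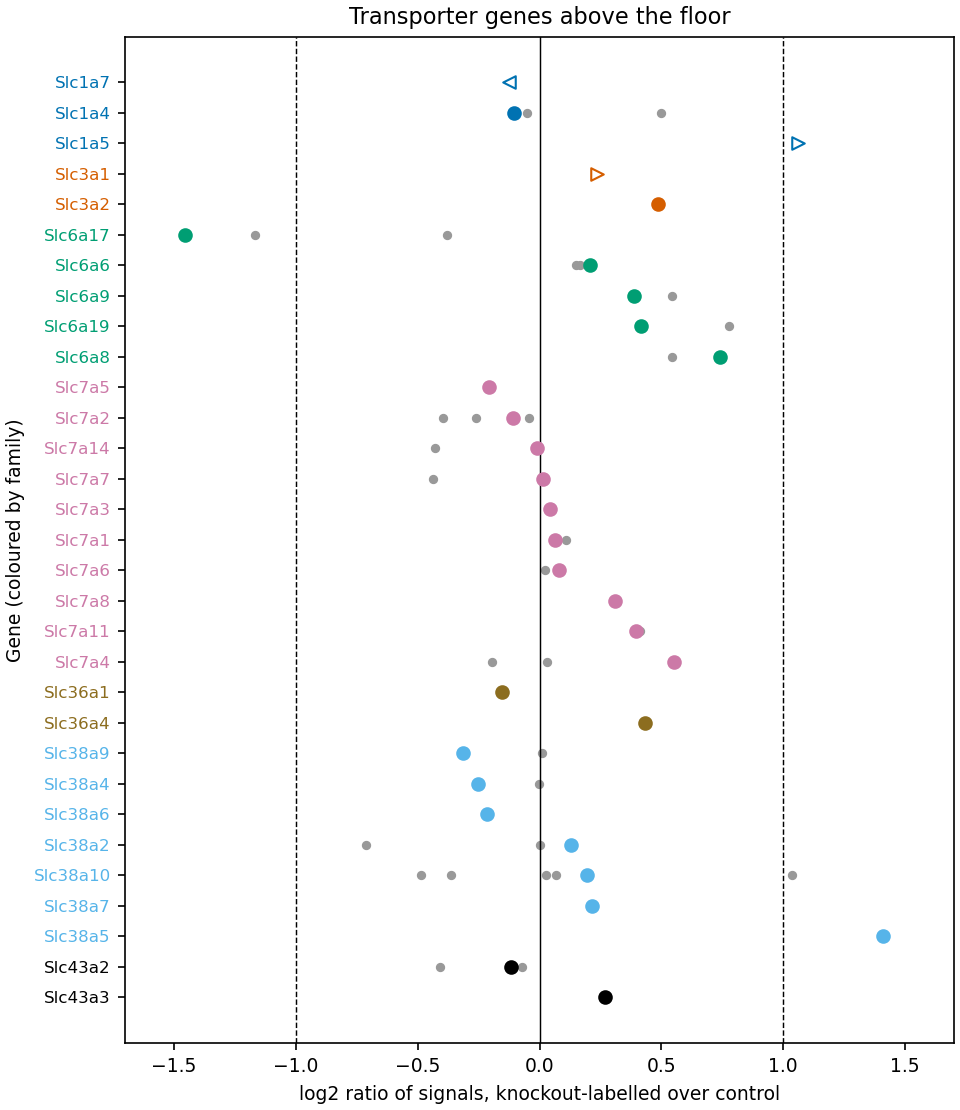
Log2 ratio of signals, knockout-labelled over control, for the 31 transporter genes above the floor on at least 1 array, grouped and coloured by family. Large filled circles are brightest probe sets above the floor on both arrays, open triangles are bounds that point away from 0, grey points are other probe sets above the floor, and dashed lines mark 2-fold. Slc38a5 and Slc1a5 lie beyond 2-fold on the right and Slc6a17 on the left, while all 10 Slc7a genes stay between the dashed lines.

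Of the heavy chains, Slc3a2 differed by under 1.5-fold, and the 5 measured light chains had log2 ratios from -0.21 to 0.39. Slc3a2 encodes 4F2hc (CD98), which carries most Slc7a light chains to the cell surface. Its only probe set read 2345 in control and 3281 in knockout-labelled islets. The difference was 1.40-fold. This log2 ratio of 0.48 was under the 1.5-fold limit but outside the central 95% of the 711 genes in its signal window, which ran from -0.70 to 0.42. Slc38a5, Slc6a17 and Slc3a2 were the 3 of 28 transporter genes above the floor on both arrays that lay outside the range for their signal. By construction, 5% of genes of like signal lie outside such a range. Slc3a1, the heavy chain for cystine and dibasic amino acid exchange, read 18.9 and 25.4, at least 1.18-fold higher and next to the floor.

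Among the light chains, Slc7a5 (LAT1), the main carrier of large neutral amino acids in growing cells, read 288 in control and 249 in knockout-labelled islets. Slc7a8 (LAT2) read 175 and 217, a log2 ratio of 0.31. Slc7a6, a light chain for exchange of cationic against neutral amino acids, read 176 and 186. Its close relative Slc7a7 read 27.2 and 27.5, and another probe set of it 29.4 and 20.2. Slc7a11 encodes xCT, which imports cystine for glutathione synthesis in exchange for glutamate. It read 38.8 and 51, and its other probe set 29.8 and 39.6. Both gave log2 ratios near 0.4 (0.39 and 0.41), within the central range of -1.04 to 1.08 for genes of like signal. The light chain genes Slc7a9, Slc7a10, Slc7a12, Slc7a13 and Slc7a15 were at or below the floor.

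All 5 genes of the cationic amino acid transporter group were measured on both arrays and none reached 1.5-fold. Slc7a1 (CAT1), the widespread arginine and lysine carrier, read 913 in control and 953 in knockout-labelled islets, and its other measured probe set 497 and 536. Slc7a2 (CAT2) read 212 and 196, and all 4 of its probe sets had log2 ratios below 0, from -0.40 to -0.04. Slc7a3 read 220 and 226. Slc7a14, a relative of this group, read 1146 and 1138, with -0.43 in its other probe set. Slc7a4, another relative whose own transport activity is uncertain, was the farthest from 1 in the family at 198 and 290. Its log2 ratio of 0.55 was not shared by its 2 other probe sets, which gave 0.03 and -0.20.

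Slc36a4, a proton-coupled transporter family gene for proline and tryptophan, read 269 in control and 364 in knockout-labelled islets, a log2 ratio of 0.43 from its only probe set. Slc36a1, the family's lysosomal and plasma membrane form, read 155 and 139.5. Slc36a2 and Slc36a3 were at or below the floor. Of the Slc43a genes, Slc43a2 (LAT4) read 205 and 189, and its other probe sets gave -0.41 and, as a bound, -0.07. Slc43a3, which carries purine bases, read 23.3 and 28.1, next to the floor, and Slc43a1 (LAT3) was at or below it.

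In all, 27 of the 58 genes were at or below the floor on both arrays in their brightest probe set, and so were all 47 of their probe sets, with signals from 0.3 to 21.5. A probe set under the floor can be a transcript that is absent, one below what this array resolves, or a probe set that does not bind it well. Different probe sets of a gene gave a guide to measurement error on the array, though they share the RNA. For the 16 transporter genes with several probe sets above the floor on both arrays, the median SD of log2 ratios was 0.19, close to the 0.21 over 4719 genes of all kinds. Of 26 probe sets other than the brightest, 20 had the sign of the brightest.

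Most genes that report on amino acid supply were similar on the 2 arrays. ATF4 is the transcription factor that raises amino acid transporter and synthesis genes when amino acids are short. Of 24 measured genes of its response, 1 was at least 2-fold higher (Cth), against 1.82% of all genes. Another 1 was at least 2-fold lower (Nupr1), against 1.44% of all genes. Within 1.5-fold lay 20 of the 24, or 83.3%, and 86.9% of all genes, and the median log2 ratio of the 24 was 0.02. Asparagine synthetase (Asns), the textbook target, read 3488 in control and 3515 in knockout-labelled islets, and Atf4 itself 3643 and 3863. Cth, which makes cysteine from cystathionine, read 61.4 and 194, 3.15-fold higher, and the stress protein gene Nupr1 read 3839 and 1678, 2.29-fold lower. Ddit4, an inhibitor of mTORC1, gave a log2 ratio of -0.75, and Eif2ak4, the kinase that senses uncharged tRNA, one of 0.64.

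The cytosolic aminoacyl-tRNA synthetase genes, which load amino acids onto tRNA, lay close together. None of the 18 reached 1.5-fold, their median was 0.08 and they ran from -0.22 (Yars) to 0.29 (Wars). For the 33 genes of amino acid sensing by mTORC1 the median was -0.02, and none reached 2-fold. Deptor, which binds and restrains mTOR, had a log2 ratio of 0.73 and Tsc2, a suppressor of mTORC1, one of 0.67, while Depdc5, part of a brake on the same complex, had -0.63. The 13 genes of glutamine, glutamate and GABA metabolism had a median of 0.01, and none of them reached 2-fold either. In this list the GABA-synthesising enzyme Gad2 was at least 1.79-fold higher, and Gad1, its other form, read 534 and 363. Among 16 measured amino acid transporters and partners of other families, none reached 2-fold and the median was -0.09. Slc25a15, the mitochondrial ornithine carrier, went from 55.6 to 105.5 (log2 ratio 0.92), and Ctns, the lysosomal cystine exporter, from 75.6 to 115 (0.60). Slc15a3, a lysosomal peptide and histidine transporter known from macrophages, was at least 1.53-fold higher, and macrophage markers were higher on the same array. Their part in this ratio was not tested.

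**Figure D4:**
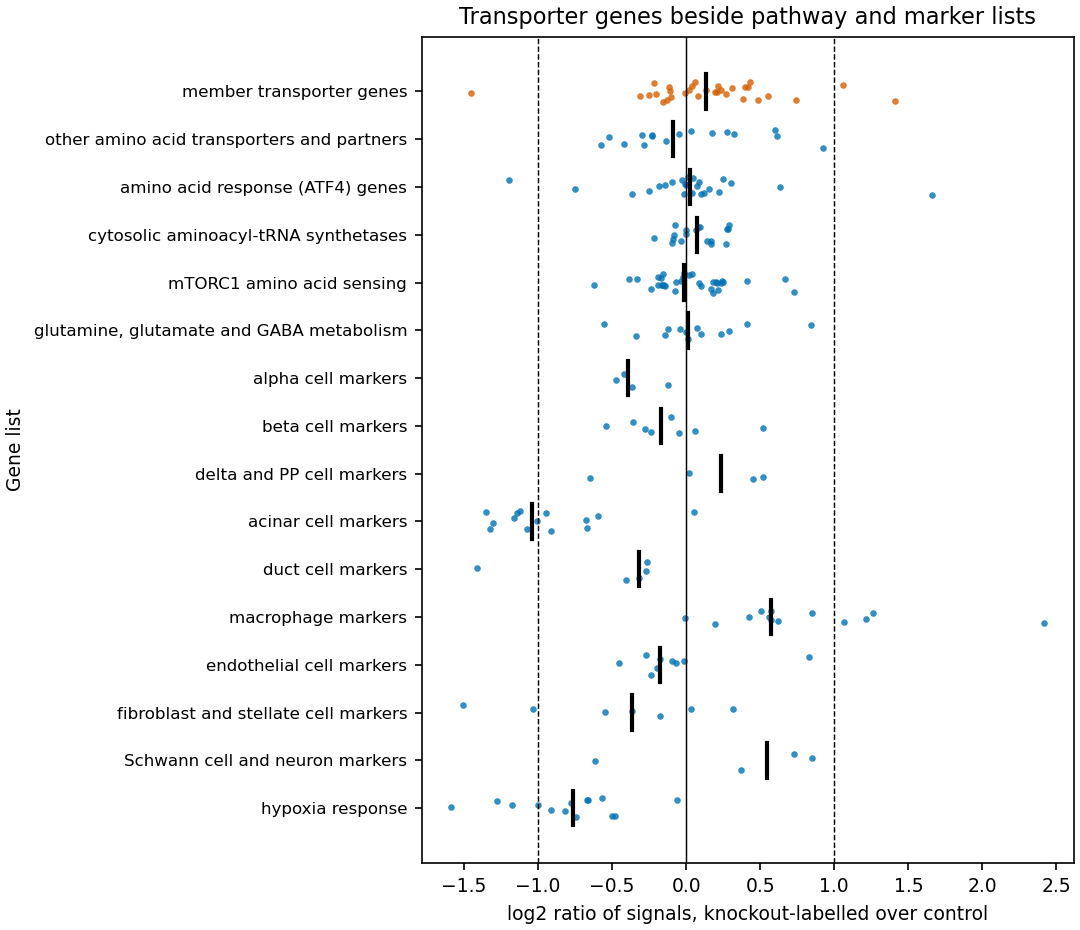
Log2 ratio of signals, knockout-labelled over control, for the measured genes of the 7 transporter families (orange) and of each pathway and marker list (blue), with a black bar at the median and dashed lines at 2-fold. Points are spread vertically within a row for visibility. Transporters and the lists of amino acid response, sensing and metabolism centre near 0, whereas acinar cell and hypoxia response genes lie to the left and macrophage markers to the right.

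Some other gene groups had medians farther from 0 than the transporters. In the hypoxia response list 4 of 14 genes were at least 2-fold lower, against 1.44% of all genes. All 14 had log2 ratios below 0, with a median of -0.76, in a list chosen with earlier results of these data known. Egln3, an oxygen sensor and target of the hypoxia factor, read 70.2 in control and 23.4 in knockout-labelled islets. The 16 probed acinar cell markers summed to 50813 in control and 26676 in knockout-labelled islets, with Ptf1a and Rbpjl at or below the floor on both. For the 15 macrophage markers the sums were 1416 and 2263, with Itgam and Aif1 at or below the floor. Such sums are weighted towards the probe sets with bright signals. Median log2 ratios were -0.32 for 5 duct cell markers, -0.18 for 9 endothelial cell markers, -0.37 for 7 fibroblast and stellate cell markers, -0.39 for 4 alpha cell markers, 0.23 for 4 delta and PP cell markers and 0.55 for 4 Schwann cell and neuron markers. Among these, the duct cell gene Car2 was at least 2.66-fold lower, the matrix gene Dcn at least 2.84-fold lower and the collagen gene Col3a1 2.04-fold lower. The delta and PP cell list was mixed. Ppy, the PP cell hormone gene, went from 12702 to 8095 (log2 ratio -0.65), and Hhex, Rbp4 and Sst gave 0.52, 0.45 and 0.02. Transporter signals from these other cell types are part of each islet signal, and their part in the transporter ratios was not tested.

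Promoter sequences were examined because several transporter genes are known ATF4 targets. RefSeq promoters of build GRCm38.p6, from 250 bases before to 50 bases after each annotated start, were found for 41 of the 58 genes. The search used TGATGNAA, the core of the element bound by ATF4 with a C/EBP partner, on both strands. It matched 1219 of 27025 genes in the whole table (4.51%), and 4 of the 41 transporter genes (9.76%), which were Slc7a11, Slc1a4, Slc7a7 and Slc6a21. The Slc7a11 stretch below holds 2 matches in opposite orientation, at positions -66 to -59 and -47 to -40 from the start. The Slc1a4 and Slc7a7 stretches hold 1 match each across an annotated start. The Slc7a7 match lies at -243 to -236 from another annotated start of that gene, and a further match, TGATGAAA at -141 to -134, lies outside the stretch printed. Matches are in capitals, sequences run 5′ to 3′ on the gene's strand, and Slc38a5 and Slc6a17, the genes with the highest and lowest ratio among those measured on both arrays, are shown beside them as promoters without a match.
Slc7a11, chr3:50443614-50443713, minus strand: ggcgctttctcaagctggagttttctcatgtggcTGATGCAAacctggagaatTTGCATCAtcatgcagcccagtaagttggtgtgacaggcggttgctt
Slc1a4, chr11:20332706-20332735, minus strand: tccagcgtgcctcctgcgTTGCATCAtctc
Slc7a7, chr14:54417937-54417966, minus strand: tttaatttgggacctagaagcTGATGCAAc
Slc38a5, chrX:8271231-8271380, plus strand: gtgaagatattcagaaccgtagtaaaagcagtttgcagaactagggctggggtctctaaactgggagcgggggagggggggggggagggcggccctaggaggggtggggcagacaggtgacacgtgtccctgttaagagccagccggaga
Slc6a17, chr3:107518019-107518168, minus strand: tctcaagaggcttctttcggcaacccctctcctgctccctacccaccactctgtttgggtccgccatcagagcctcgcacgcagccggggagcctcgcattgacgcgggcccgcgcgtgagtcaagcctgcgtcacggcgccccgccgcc

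The transporter genes with a match showed no shared direction. Their log2 ratios were 0.39 for Slc7a11, -0.10 for Slc1a4 and 0.02 for Slc7a7, and Slc6a21 was at or below the floor. The STAT5-type element TTCNNNGAA, which reads the same on both strands, matched 9.55% of genes in the table and 4 of the 41 transporter genes (9.76%), Slc7a1, Slc7a11, Slc38a9 and Slc1a3. These had log2 ratios of 0.06, 0.39 and -0.31, with Slc1a3 at or below the floor. A match describes only these letters in this window, and no binding was measured here.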

How the data were processed

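The deposited table holds 1 linear signal intensity per probe set and array, made with MAS5 per the submitters' processing notes. The version, scaling target, background step and detection calls are not given in the sources used here. No further normalization was applied in the main setting. Platform annotation, which can be old, paired 34945 of 45037 probe sets with 1 gene, 932 with several and 9160 with none. Only the first kind named a gene, and 1 probe set naming a transporter of these families together with another gene was left out. Entrez identifiers placed all 58 member symbols in the RefSeq table of GRCm38.p6, with the symbol unchanged. A signal under the 50th percentile of its array was set to that percentile for the log2 ratio, and genes under it on both arrays (6391) were left out of ratios and medians.

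With 1 array per group no p-value or standard error exists; 2-fold and 1.5-fold limits describe size only, and the number of arrays limits the precision. The members, gene lists, role groups and motifs were chosen with earlier results of these data known. Values are given for members at 1.5-fold or more, the largest ratio in each direction per family, both heavy chains and other members within their role group. From each list up to 4 genes by size of ratio are named, and Asns, Atf4, Cltrn and the marker genes at the floor were added after their values were seen. Gene symbols of lists were matched through synonyms where needed. The calculation, tested on simulated data, used Python 3.11.15 with pandas 2.3.3 and numpy 2.4.6. Alternatives covered the floor, a pseudocount, the scaling, the choice of probe sets and the fold limit.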

Additional observations from a re-analysis of the deposited data

How the results depend on the processing

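Counts of called transporter genes rest on the floor and the fold limit. The 2 genes at least 2-fold higher became 4 under a 30th percentile floor, 1 under a 70th percentile floor and 0 at a limit of 3-fold. The 1 gene at least 2-fold lower became 2 under a 30th percentile floor, 2 when a pseudocount of 16 replaced the floor, and 0 at a limit of 3-fold. Under the 30th percentile floor 46 transporter genes and 15370 genes of all kinds were measured. Of the 15370, 695 were at least 2-fold higher and 638 lower. The 70th percentile floor left 23 and 8175 genes, and 96 of the 8175 were higher and 64 lower by that limit. With the pseudocount there were 31 and 11802 genes, and 236 of the 11802 were higher and 175 lower. All-gene counts at a 3-fold limit were not made. The median over all member genes stayed between 0.05 and 0.17 in every setting run, while the median over their single probe sets was 0.02 in the main setting. When the probe sets of each gene were averaged, the Slc1a median turned to 0.11 and the Slc38a median to -0.13. Under a 30th percentile floor the Slc6a median was 0.17, the Slc36a median -0.23, the Slc1a median 0.03 and the Slc38a median -0.04, and under a 70th percentile floor the Slc43a median was -0.12. The Slc43a median under the 70th percentile floor was the value of Slc43a2 alone, as Slc43a3 was not measured at that floor. The Slc1a median after averaging was the value of Slc1a4. The cause of the other shifts was not tested. A shift was counted as a move where it passed 0.21, the median SD between probe sets of a gene, which share the RNA and give no replicate error. Among 240 single-gene values, 231 moved by less than that, and 6 changed sign. Many of these values could not move: averaging leaves a gene with 1 probe set as it was. A lower floor likewise leaves a gene above both floors unchanged, so the count does not measure stability. Slc6a17 lay just past the 2-fold limit when its probe sets were averaged, and Slc1a5 was at 1.64 under a 30th percentile floor. Slc1a7, a bound of -0.13 in the main setting, passed 2-fold lower at -1.46 under that floor and at -1.20 with the pseudocount, on signals of 23.7 and 1.3 near or under the floor. No other scaling shifted the all-gene median by more than 0.01. No paired analysis was possible because each group holds 1 array, and for the same reason no replicate could be left out.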
